A study of Homo sapiens with 12 samples.

Results

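HLA class I molecules carry peptides from inside the cell to its surface, and 7 transcripts that encode parts of that pathway were followed across all 12 libraries of the study. They were taken by name from 23619 genes: the heavy chains HLA-B, HLA-C and HLA-E, the light chain B2M, both subunits of the peptide transporter, TAP1 and TAP2, and TAPBP, which encodes tapasin. All 7 had a mean of 1 FPKM (fragments scaled to transcript length and library size) or more over the libraries and are among the 11381 genes tested. Levels were measured by RNA sequencing of poly(A)-selected RNA from MOLT4, a cell line grown from a human T-cell acute lymphoblastic leukemia and long in use, after 6 h of treatment. Cells received 250 nM SNS-032, an inhibitor of several cyclin-dependent kinases that include CDK9, 250 nM THAL-SNS-032, in which SNS-032 is joined by a linker to a thalidomide-type ligand of the ubiquitin ligase receptor cereblon, 250 nM NVP-2, a selective CDK9 inhibitor, or the vehicle, 0.1% DMSO. Each group had 3 libraries. The labels name neither separate cultures nor clones, so the p-values reflect no more than the spread among the libraries at hand.

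CDK9 is the kinase of P-TEFb, which releases RNA polymerase II from pausing near the start of genes. A class I molecule is a heavy chain bound to beta-2 microglobulin (B2M) and a short peptide, which proteasomes cut from cytosolic proteins and the TAP1-TAP2 heterodimer pumps into the endoplasmic reticulum. Tapasin holds the empty heavy chain beside TAP while a peptide is chosen, with the chaperone calreticulin and the disulfide isomerase PDIA3. HLA-B and HLA-C present peptides to CD8+ T cells and are ligands of killer-cell receptors, and HLA-E presents leader peptides of other class I chains to the CD94-NKG2 receptors of NK cells. Immature T-lineage cells are known to carry less class I than mature T cells.

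Class I genes are known to share a promoter module bound by RFX, CREB/ATF, NF-Y and the coactivator NLRC5, beside an element bound by interferon regulatory factors. The 250 bases before the annotated start are shown for B2M, HLA-B, HLA-C and TAP1, because the first 3 changed by nearly the same amount with every compound and TAP1 changed most. They come from RefSeq on build GRCh38.p14, whereas the expression table was made on hg19 and gives no positions. The windows are chr15:44711267-44711516 (plus strand) for B2M, chr6:31357180-31357429 (minus strand) for HLA-B, chr6:31272093-31272342 (minus strand) for HLA-C and chr6:32853705-32853954 (minus strand) for the first TAP1 entry, each written 5′ to 3′ on the strand of the gene. Capitals mark matches on either strand to 4 patterns. The first is CCAATCA, the CCAAT box bound by NF-Y with its flanking bases. The second is TGACG, the core of the element bound by CREB and ATF factors. The last 2, GAANNGAAA and the form GAAANNGAA, are versions of the repeat that interferon regulatory factors bind.
B2M: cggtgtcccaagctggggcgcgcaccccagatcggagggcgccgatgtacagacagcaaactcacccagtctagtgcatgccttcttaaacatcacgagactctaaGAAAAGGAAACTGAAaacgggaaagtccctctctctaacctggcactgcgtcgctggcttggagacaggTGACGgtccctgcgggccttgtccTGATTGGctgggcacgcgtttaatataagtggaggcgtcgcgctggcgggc
HLA-B: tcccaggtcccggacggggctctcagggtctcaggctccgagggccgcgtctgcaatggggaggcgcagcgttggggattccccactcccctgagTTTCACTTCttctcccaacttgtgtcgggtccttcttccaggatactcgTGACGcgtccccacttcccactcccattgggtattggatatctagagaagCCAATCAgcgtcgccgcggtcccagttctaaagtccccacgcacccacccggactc
HLA-C: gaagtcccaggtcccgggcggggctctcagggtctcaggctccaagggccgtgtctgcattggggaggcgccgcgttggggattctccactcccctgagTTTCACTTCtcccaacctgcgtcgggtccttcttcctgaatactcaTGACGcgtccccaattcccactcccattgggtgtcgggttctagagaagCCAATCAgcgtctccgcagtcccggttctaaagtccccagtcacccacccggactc
TAP1: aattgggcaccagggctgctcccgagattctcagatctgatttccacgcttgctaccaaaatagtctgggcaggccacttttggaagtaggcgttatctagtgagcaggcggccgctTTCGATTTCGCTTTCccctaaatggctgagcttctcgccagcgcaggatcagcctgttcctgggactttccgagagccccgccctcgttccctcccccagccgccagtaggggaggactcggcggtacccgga

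The HLA-B and HLA-C windows were identical at 226 of 254 aligned columns (89.0%), whereas the other pairs among B2M, HLA-B, HLA-C, TAP1, TAP2 and TAPBP lay between 42.7% and 49.0%. B2M, HLA-B and HLA-C each held the CCAAT box pattern, beginning 51 to 56 bases before the start, and the CREB core pattern. The CCAAT box match was on the opposite strand in B2M and on the written strand in HLA-B and HLA-C, so these need not be the same element. In all 35116 RefSeq windows of this length the CCAAT box pattern was present in 6.62% and the CREB core in 21.2%. GAAANNGAA matched in B2M, TAP1, TAP2 and TAPBP, against 6.88% of all windows. The other spacing, GAANNGAAA, matched in HLA-B, HLA-C and TAP2, against 6.56%. TAP2 also held the CREB core. Matches of 1 pattern can overlap, as both pairs of GAAANNGAA matches in B2M and in TAP1 do. The motifs were picked with these sequences in view, so the matches describe the windows and say nothing about binding or about the changes described here.

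HLA-B, HLA-C and HLA-E transcripts resemble each other, so short reads can be assigned to the wrong one. In reference transcripts 2.47% of 50-base windows of HLA-B, 5.91% of HLA-C and 4.39% of HLA-E were also present in a transcript of another gene among HLA-B, HLA-C, HLA-E, HLA-F, HLA-G and the pseudogene HLA-H, against 9.17% of HLA-H. These shares are lower bounds, since other class I genes were not compared. The alleles of MOLT4 may differ from the reference, and the way the authors' counting divided shared reads is not given in the sources used here. The split between these heavy chains is therefore uncertain, more so than the values of B2M, TAP1, TAP2 and TAPBP, whose reference transcripts shared no window with these heavy chain genes. TAP1 and TAP2 shared 31 windows with each other (1.07% of TAP1 and 0.55% of TAP2).

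The libraries differed in total level. Over all tested genes the median difference from DMSO on the log2(FPKM + 1) scale was -1.92 for SNS-032 libraries, -1.90 for THAL-SNS-032 libraries and -2.54 for NVP-2 libraries, while medians of the spike-in RNAs (ERCC) stayed between -0.29 and 0.21 of the DMSO mean. In the DMSO libraries 11974 to 12191 genes reached 1 FPKM, against 8238 to 10457 in treated libraries. Among the SNS-032 libraries replicate 1 was lowest, with a median level -2.61 from DMSO against -1.87 and -2.03 in the other 2 libraries. All 18 listed markers of the immature T lineage were at 1 FPKM or more in DMSO, and the B-cell, myeloid, NK, stromal, epithelial and erythroid lists summed to at most 12.9 FPKM in any library. With the ERCC medians set equal in all libraries the median differences were -1.95, -1.95 and -2.62. Per the labels, cells were counted and the spike-ins were added at lysis, but the number of cells per library is not given in the sources used here, so from these values fewer cells and less RNA per cell cannot be told apart.

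In DMSO the light chain transcript exceeded each of the 3 heavy chains among the 7 by an order of magnitude in FPKM, a level per length of transcript. B2M averaged 2687 ± 257 FPKM in DMSO (SD, n = 3). HLA-C followed at 227 ± 26.0 and HLA-B at 196 ± 27.0 FPKM, with overlapping libraries. HLA-E had 116 ± 10.9 and TAPBP 77.5 ± 8.21 FPKM, and their DMSO libraries did not overlap. The transporter subunits came last and overlapped, with 47.0 ± 5.39 FPKM for TAP2 and 46.3 ± 3.26 FPKM for TAP1. The order was partly different in treated cells. Within each of the 9 treated libraries TAPBP was above HLA-E, although the ranges over libraries overlapped with SNS-032 and with NVP-2, and TAP1 lay below TAP2 in every treated library.

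**Figure D1:**
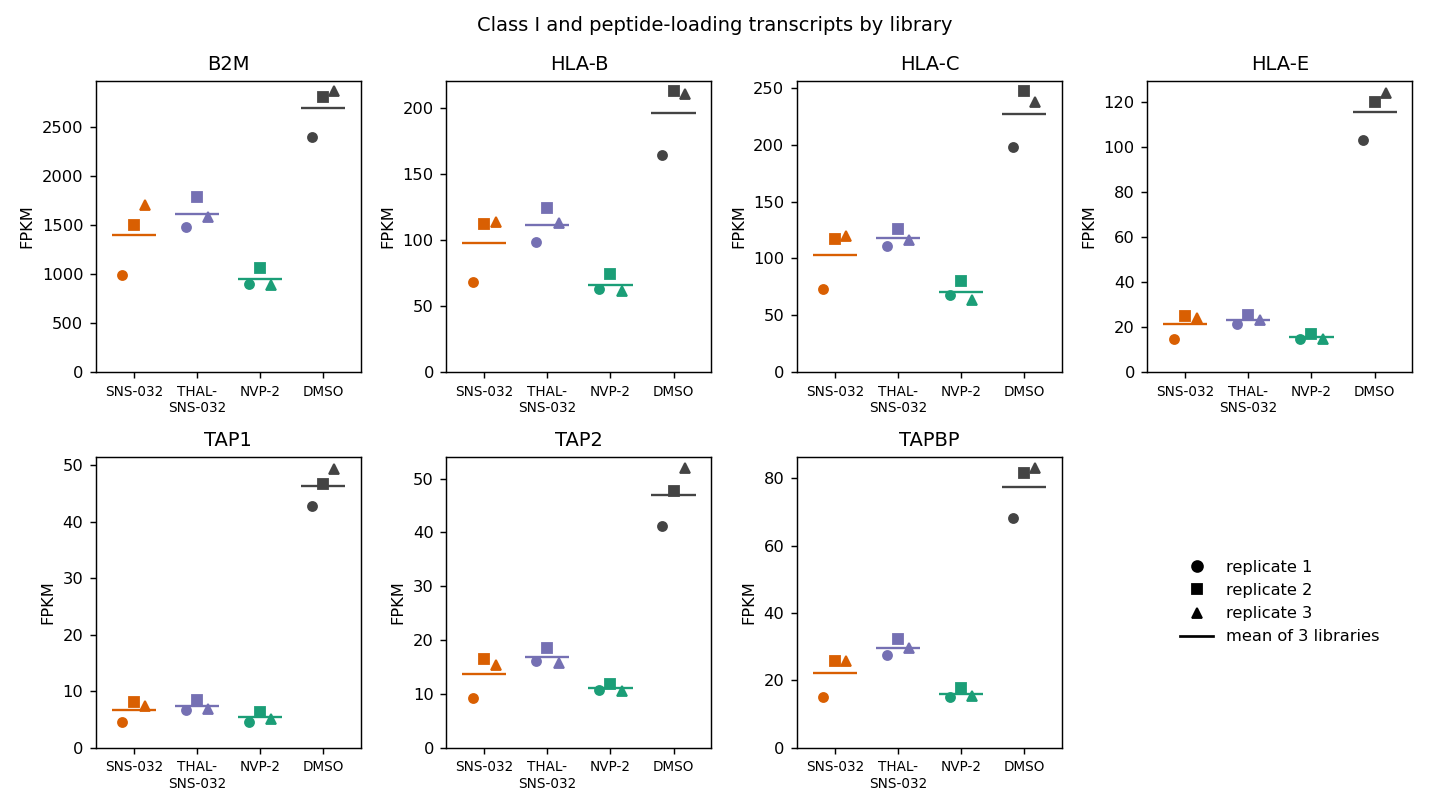
FPKM (linear axes from 0) of the 7 transcripts in each of the 12 libraries, with SNS-032, THAL-SNS-032, NVP-2 and DMSO from left to right, symbols for replicates and a line at the mean of 3 libraries. Every treated library lies below every DMSO library, and SNS-032 replicate 1 is the lowest of its group in each panel.

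The comparisons with DMSO ask which transcripts each compound had changed within 6 h. All 7 transcripts fell with each of the 3 compounds on the deposited scale, and no treated library reached any DMSO library. This is close to what most genes did: 94.6% of tested genes were called lower after SNS-032, 94.8% after THAL-SNS-032 and 97.1% after NVP-2 (limma, Benjamini-Hochberg adjusted p under 0.05), and all 3 treated libraries lay below DMSO for 94.8%, 95.9% and 97.8% of genes. What differed among the 7 was the size of the fall. B2M, HLA-B and HLA-C lost the least, TAP2 and TAPBP were intermediate, and HLA-E and TAP1 lost the most.

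The light chain B2M, which every class I molecule needs, had 986, 1502 and 1698 FPKM in SNS-032 libraries, 1479.8, 1786 and 1575 in THAL-SNS-032 libraries and 893, 1061 and 885 in NVP-2 libraries, against 2392, 2805 and 2864 in DMSO libraries. The NVP-2 libraries were low and close together, while SNS-032 replicate 1 was near them and the other SNS-032 libraries were among the THAL-SNS-032 values. Of its DMSO mean, B2M kept 51.9% after SNS-032, 60.0% after THAL-SNS-032 and 35.2% after NVP-2. The differences were -0.98 (SE 0.20, adjusted p = 2.25e-04, limma), -0.74 (adjusted p = 0.00238, limma) and -1.50 (adjusted p = 2.33e-06, limma). At these sizes 87.9%, 91.4% and 87.5% of all tested genes had a lower difference than B2M.

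HLA-B, a classical heavy chain, had 67.9, 112 and 114 FPKM with SNS-032, 98.3, 124 and 113 with THAL-SNS-032 and 62.9, 74.1 and 61.1 with NVP-2, against 165, 213 and 210.2 in DMSO. HLA-C, the other classical heavy chain here, had 72.9, 117 and 119 FPKM with SNS-032, 111, 126 and 116 with THAL-SNS-032 and 67.6, 80.1 and 63.5 with NVP-2, against 198, 247 and 237 in DMSO. In both genes SNS-032 replicate 1 lay among the NVP-2 libraries and the other SNS-032 libraries among the THAL-SNS-032 libraries. In the same order of compounds, HLA-B changed by -1.02, -0.80 and -1.55 and HLA-C by -1.16, -0.94 and -1.68 (SE 0.21 and 0.20). Both kept close to the change of B2M, and between 82.9% and 90.2% of all tested genes had a lower difference.

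HLA-E, the non-classical heavy chain read by NK-cell receptors, had 14.6, 24.9 and 24.0 FPKM with SNS-032, 21.3, 25.5 and 23.0 with THAL-SNS-032 and 14.8, 16.9 and 14.5 with NVP-2, against 103, 119.9 and 124 in DMSO. Every treated library was far below the lowest DMSO library. The treated libraries ran from 14.5 to 25.5 FPKM, with all THAL-SNS-032 libraries above all NVP-2 libraries. It kept 18.3%, 20.1% and 13.3% of its DMSO mean. Its differences of -2.43, -2.27 and -2.83 (SE 0.19) had 95% intervals of -2.84 to -2.02, -2.68 to -1.85 and -3.24 to -2.42, all apart from those of HLA-B and HLA-C under the same compound. HLA-E thus lay below the median gene with each compound, and 27.7%, 35.1% and 38.3% of genes had a lower difference.

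TAP1, the first subunit of the peptide transporter, had 4.64, 8.08 and 7.31 FPKM with SNS-032, 6.61, 8.50 and 6.85 with THAL-SNS-032 and 4.64, 6.30 and 5.14 with NVP-2, against 42.8, 46.7 and 49.3 in DMSO. The treated libraries ran from 4.64 to 8.50 FPKM, with the lowest THAL-SNS-032 library just above the highest NVP-2 library. TAP1 kept 14.4%, 15.8% and 11.6% of its DMSO mean, with differences of -2.65, -2.51 and -2.90 (SE 0.19). Its partner TAP2 had 9.30, 16.4 and 15.4 FPKM with SNS-032, 16.1, 18.5 and 15.8 with THAL-SNS-032 and 10.7, 11.9 and 10.5 with NVP-2, against 41.2, 47.8 and 51.9 in DMSO. TAP2 kept 29.2%, 35.7% and 23.5%, with differences of -1.74, -1.43 and -1.99 (SE 0.19). The 2 subunits of the heterodimer, near equal in DMSO, were thus unequal after each compound, and their 95% intervals did not overlap under any compound (-3.05 to -2.25 for TAP1 and -2.15 to -1.32 for TAP2 with SNS-032). The difference between them was not tested on its own.

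TAPBP, whose product tapasin links TAP to the heavy chain, had 15.1, 25.7 and 25.7 FPKM with SNS-032, 27.4, 32.3 and 29.5 with THAL-SNS-032 and 15.0, 17.7 and 15.5 with NVP-2, against 68.1, 81.5 and 83.0 in DMSO. The THAL-SNS-032 libraries were the highest of the treated ones, above all SNS-032 and all NVP-2 libraries. TAPBP kept 28.6%, 38.4% and 20.7% of its DMSO mean and changed by -1.80, -1.35 and -2.20 (SE 0.20).

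**Figure D2:**
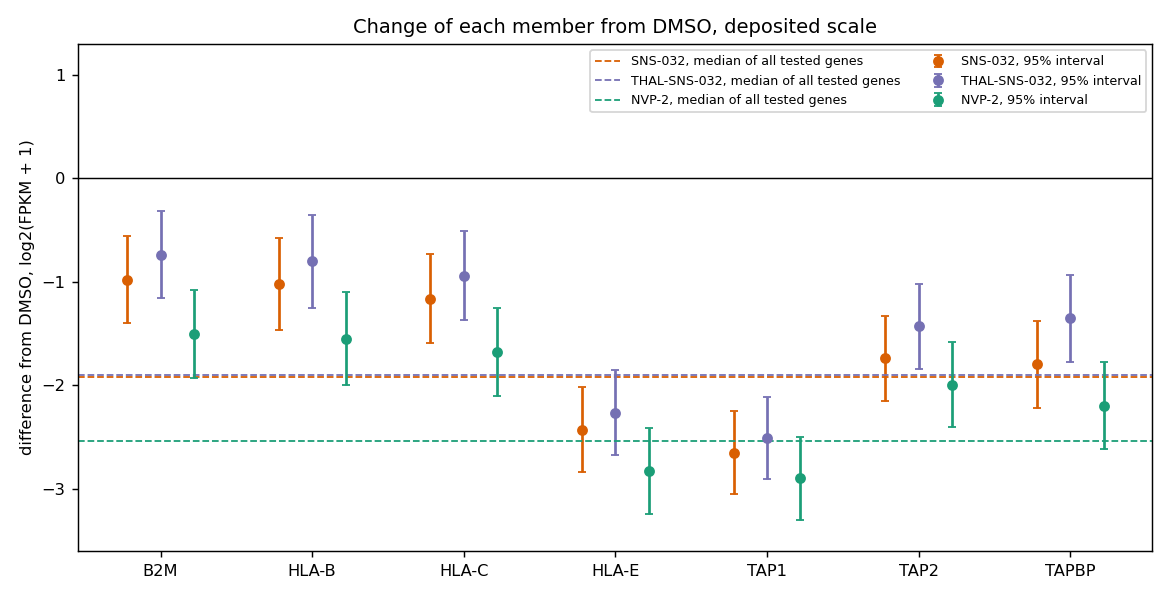
Difference of each transcript from DMSO on the log2(FPKM + 1) scale of the deposited values, with 95% intervals of the limma fit, with SNS-032 at the left, THAL-SNS-032 in the middle and NVP-2 at the right of each gene; dashed lines are the medians of all 11381 tested genes. B2M, HLA-B and HLA-C lie above the dashed line of their compound and TAP1 and HLA-E below it.

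Over the 7 transcripts the median difference was -1.74 after SNS-032, -1.35 after THAL-SNS-032 and -1.99 after NVP-2, beside -1.92, -1.90 and -2.54 for all genes tested. Centring each library on its own median removes any change common to all genes, so that by its construction a fall smaller than the common one becomes a positive value. Genes low in DMSO cannot fall far on this scale and can turn positive for that reason alone. The shares of all genes called higher after centring include such genes. After centring, B2M, HLA-B, HLA-C, TAP2 and TAPBP were called higher with SNS-032 and THAL-SNS-032 (background 52.6% and 57.2% higher, 31.1% and 29.2% lower). With NVP-2 these 5 and HLA-E were called higher (59.7% higher, 28.1% lower). B2M then stood at 1.19, 1.52 and 1.46, where the median gene stood at 0.25, 0.36 and 0.42. TAP1 stayed lower with SNS-032 (-0.48) and THAL-SNS-032 (-0.25) and was 0.061 with NVP-2, and HLA-E stood at -0.26 (called lower), -0.0081 and 0.13. The order of the 7 among all genes does not depend on centring, which shifts every gene of a comparison alike.

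**Figure D3:**
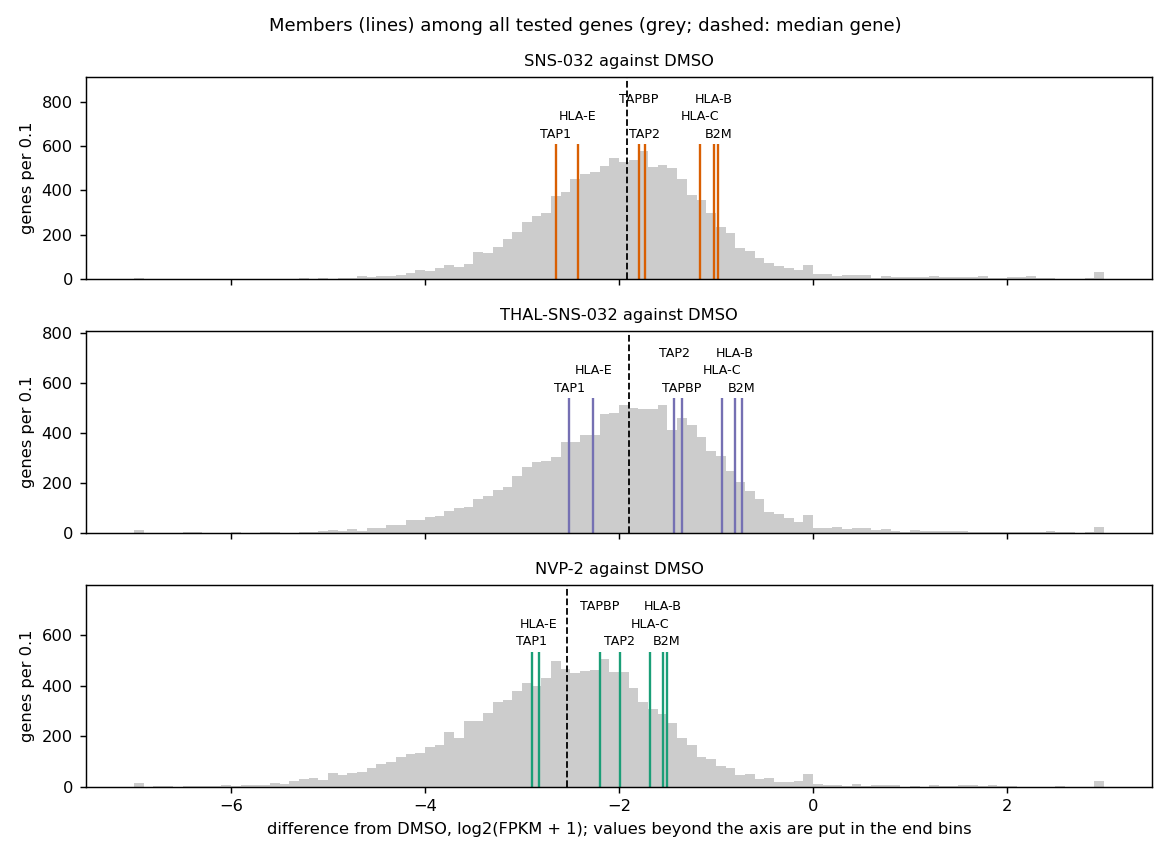
Number of tested genes in bins of 0.1 of the difference from DMSO on the log2(FPKM + 1) scale (grey), 1 panel per compound, with the 7 transcripts as coloured lines and the median gene dashed. HLA-E and TAP1 lie left of the median gene and the other 5 right of it in each panel.

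Ratios within a library do not depend on how libraries were scaled against each other. The log2 ratio of HLA-B to B2M was -3.86, -3.74 and -3.90 with SNS-032, -3.91, -3.85 and -3.80 with THAL-SNS-032 and -3.83, -3.84 and -3.86 with NVP-2, against -3.86, -3.72 and -3.77 in DMSO. The groups overlapped, and the mean ratio differed from DMSO by -0.05, -0.072 and -0.058 (exact two-sided permutation p = 0.4, 0.3 and 0.4). The ratio of HLA-C to B2M was lower in all 9 treated libraries, by -0.19, -0.21 and -0.19 on average. HLA-E to B2M was -6.08, -5.91 and -6.14 with SNS-032, -6.12, -6.13 and -6.10 with THAL-SNS-032 and -5.91, -5.97 and -5.93 with NVP-2, against -4.53, -4.55 and -4.53 in DMSO. All treated libraries lay far below the DMSO libraries, whose values were nearly identical.

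Among the peptide loading genes the ratio to B2M was also below DMSO in every treated library. The mean ratio of TAP1 differed by -1.85 after SNS-032, -1.93 after THAL-SNS-032 and -1.61 after NVP-2. The ratio of TAP2 differed by -0.84, -0.75 and -0.58, and that of TAPBP by -0.87, -0.64 and -0.76. For HLA-C, HLA-E, TAP1, TAP2 and TAPBP the exact two-sided permutation p was 0.1 in each comparison, the smallest that 3 against 3 allows, and 0.12 after adjustment over the 18 ratios. None of these ratios could pass 0.05, so the separation of the groups is a description. A ratio shows unequal change and does not show that B2M stayed level.

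**Figure D4:**
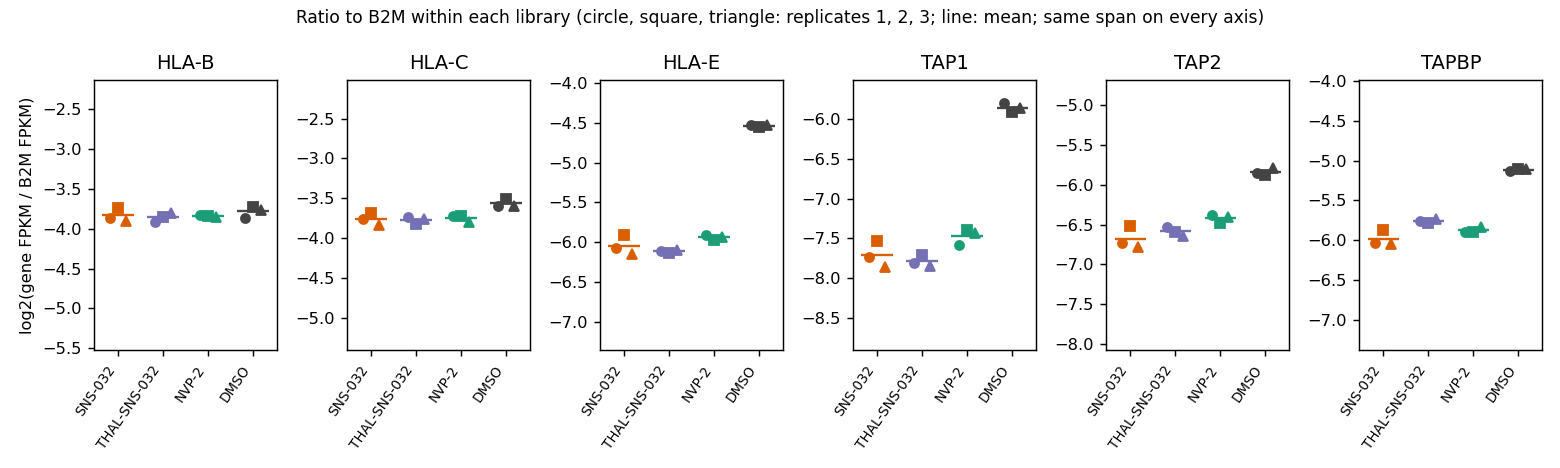
log2 ratio of each transcript's FPKM to that of B2M in the same library, with SNS-032, THAL-SNS-032, NVP-2 and DMSO from left to right and the same span on each axis. HLA-B overlaps DMSO, HLA-C lies slightly below it, and HLA-E and TAP1 lie furthest below it.

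The compounds were given at the same dose and time and can be compared directly in 3 pairs. Against SNS-032, THAL-SNS-032, which differs by the linker and the cereblon ligand, gave 0 of 7 called differences by limma (adjusted p under 0.05), where 13.4% of all genes were called higher and 16.7% lower. Without adjustment TAPBP alone had p under 0.05. Differences lay between 0.14 for TAP1 and 0.45 for TAPBP. The 95% intervals of all 7 lay within 2-fold, as did those of 76.9% of genes, for example -0.18 to 0.67 for B2M and 0.024 to 0.87 for TAPBP. Without SNS-032 replicate 1 the differences were 0.011 for B2M and between -0.072 for HLA-E and 0.20 for TAPBP, and HLA-B (-0.025), HLA-C (-0.0075) and TAP1 (-0.069) also turned below 0. Without SNS-032 replicate 2, TAPBP was called higher (0.57). After centring all 7 were called higher, where 51.2% of genes were higher and 23.1% lower and the median gene stood at 0.22.

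Against NVP-2, THAL-SNS-032 left more of 6 transcripts, where 70.0% of all genes were called higher. TAPBP differed by 0.85 (adjusted p = 0.00191, limma), B2M by 0.77, HLA-B by 0.75 and HLA-C by 0.74. HLA-E and TAP2 differed by 0.56 each, and TAP1 by 0.39 (adjusted p = 0.0742, limma), which did not pass. All 3 THAL-SNS-032 libraries lay above all 3 NVP-2 libraries for each of the 7, as for 84.7% of genes. The count became 7 without SNS-032 replicate 1, whose spread enters the pooled error. It became 4 without THAL-SNS-032 replicate 2, NVP-2 replicate 1 or NVP-2 replicate 3, when HLA-E and TAP2 no longer passed. The count over all 11381 genes moved the same way, from 7969 with all libraries to 9164 in the first case. In the other cases it was 6562, 6664 and 6976. With equal ERCC medians 4 of the 7 were called higher, without HLA-E and TAP2, where 6756 of all genes were. After centring 1 of 7 was called higher and 3 lower, where 29.4% of genes were higher and 38.0% lower.

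SNS-032 and NVP-2 were less clearly separated. B2M differed by 0.53 (adjusted p = 0.0359, limma), HLA-B by 0.53 (adjusted p = 0.0456, limma) and HLA-C by 0.52 (adjusted p = 0.041, limma), which made 3 of 7 called higher with SNS-032, where 52.6% of all genes were. HLA-E, TAP1, TAP2 and TAPBP lay between 0.25 and 0.40 and did not pass. The groups overlapped in all 7, because SNS-032 replicate 1 lay among the NVP-2 libraries or next to them. Without that library all 7 were called, with differences from 0.46 for TAP1 to 0.77 for HLA-B. Of all 11381 genes 9292 were then called higher, and the median gene stood at 0.69. None of the 7 was called without SNS-032 replicate 2 or 3, THAL-SNS-032 replicate 3, or NVP-2 replicate 1 or 3. None was called without DMSO replicate 2 or 3 either, and 1 was without THAL-SNS-032 replicate 1 or 2. Where none was called, 4553 to 5793 of all genes were called higher, and where 1 was, 5694 and 5780. After centring all 7 were called lower with SNS-032, where 24.8% of genes were higher and 58.9% lower. These calls thus rest on the scale and on single libraries.

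The profiles of the 7 over the 12 libraries, each taken less its own DMSO mean, fell into 3 groups by Euclidean distance. B2M and HLA-B were 0.23 apart, HLA-B and HLA-C 0.43, TAP2 and TAPBP 0.42 and HLA-E and TAP1 0.62, while B2M and TAP1 were 4.87 apart. The genes nearest to B2M were CFL1, RPS2 and AP2S1 (distance 0.13 to 0.14), those nearest to HLA-B were CAPNS1, DBI and COX4I1 (0.13 to 0.14) and those nearest to HLA-C were ANXA6, CD99 and CIB1 (0.10 to 0.12). For HLA-E they were TMEM59, GNB4 and SV2A (0.22 to 0.23) and for TAP1 TEX261, RSAD1 and APBA3 (0.20 to 0.28). For TAP2 they were INPP5D, VARS2 and BAG6 (0.17 to 0.18), and for TAPBP ACP1, PRPF31 and ARF3 (0.12 to 0.14). B2M was the 23rd nearest of 11380 genes to HLA-B, and TAP1 the 438th nearest to HLA-E. These distances share the libraries and the shift of all genes, and are descriptions.

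Other genes of the pathway were taken from lists. Of 9 tested heavy chains and class I-like genes, 8 fell with SNS-032 and all 9 with either other compound, beside 94.6%, 94.8% and 97.1% of all tested genes. After centring 4, 6 and 5 were called higher, beside 52.6%, 57.2% and 59.7% of all genes. Both counts are near the background. CD1E, a lipid-presentation gene of cortical thymocytes, averaged 134, 184 and 104 FPKM, against 822 in DMSO, and CD1D, which presents lipids to NKT cells, 1.05, 1.17 and 0.948, against 22.1.

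MICB, a stress-induced ligand of the NKG2D receptor that binds no B2M, had a different pattern. It had 15.3, 27.5 and 25.4 FPKM with SNS-032, 9.17, 8.50 and 8.11 with THAL-SNS-032 and 1.67, 1.79 and 1.65 with NVP-2, against 24.1, 24.2 and 22.3 in DMSO. The SNS-032 libraries overlapped DMSO, the THAL-SNS-032 libraries lay well below and the NVP-2 libraries lowest. The difference from DMSO was -0.087 after SNS-032 (95% interval -0.48 to 0.31, adjusted p = 0.65, limma), -1.36 after THAL-SNS-032 and -3.18 after NVP-2. Without SNS-032 replicate 1 the first was 0.16, and after centring MICB stood at 2.08 with SNS-032 and 0.90 with THAL-SNS-032. Between THAL-SNS-032 and SNS-032 it differed by -1.27 (adjusted p = 1.25e-04, limma), in the opposite direction to the 7 transcripts on the deposited scale.

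All 9 listed assembly chaperones, editors and trimming enzymes fell with each compound (all genes 94.6%, 94.8% and 97.1%), and 4, 6 and 6 were called higher after centring (all genes 52.6%, 57.2% and 59.7%). Calreticulin (CALR), which holds the class I heavy chain during loading, averaged 115 ± 37.0, 166 ± 16.7 and 60.2 ± 6.04 FPKM with the 3 compounds in the same order, against 1610.5 ± 204 in DMSO (differences -3.84, -3.27 and -4.71). HSPA5, the general chaperone of the endoplasmic reticulum, averaged 33.2, 24.6 and 7.15 FPKM, against 446 in DMSO. Both fell further than any of the 7 transcripts.

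All 6 immunoproteasome and PA28 genes and all 3 constitutive catalytic subunits fell with each compound on the deposited scale (all genes 94.6%, 94.8% and 97.1%). After centring 2, 4 and 2 of the first 6 and 0, 2 and 0 of the other 3 were called higher (all genes 52.6%, 57.2% and 59.7%). Called lower were 4, 0 and 4 of the first 6 and 1, 1 and 1 of the other 3 (all genes 31.1%, 29.2% and 28.1%). The inducible catalytic subunit PSMB9, whose gene lies head to head with TAP1, averaged 27.5, 39.4 and 17.8 FPKM, against 185 in DMSO, with differences of -2.73, -2.21 and -3.31 beside -2.65, -2.51 and -2.90 for TAP1. PSMB10, another inducible subunit, changed by -2.79, -1.96 and -3.40. PSMB5, the constitutive subunit with chymotrypsin-like activity, changed by -3.72, -3.05 and -4.78, and PSME1, a subunit of the PA28 activator, by -0.85, -0.64 and -1.40.

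All 16 tested regulators of class I transcription fell with each compound (all genes 94.6%, 94.8% and 97.1%), with medians of -2.54, -2.23 and -2.93, beside -1.92, -1.90 and -2.54 for all genes. After centring 4, 8 and 7 of them were called higher and 11, 7 and 7 lower, where 52.6%, 57.2% and 59.7% of all genes were higher and 31.1%, 29.2% and 28.1% lower. IRF1, an interferon regulatory factor, had 17.5, 35.9 and 29.2 FPKM with SNS-032, 14.4, 17.4 and 13.5 with THAL-SNS-032 and 2.54, 3.13 and 2.76 with NVP-2, against 71.1, 79.8 and 85.5 in DMSO. Its NVP-2 libraries lay far below those of the other compounds, and it changed by -1.54, -2.31 and -4.39. The NF-kB subunit RELA averaged 7.98, 4.12 and 1.52 FPKM, against 58.0 in DMSO, and the class I coactivator NLRC5 1.06, 1.45 and 0.848, against 4.44. The 4 genes of the interferon gamma receptor and its kinases also fell with each compound (all genes 94.6%, 94.8% and 97.1%), and 2 of them were called higher with each after centring (all genes 52.6%, 57.2% and 59.7%).

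Of 12 class II genes 2 were tested. HLA-DOB, a modulator of class II peptide editing, averaged 1.46 ± 0.577, 1.60 ± 0.292 and 1.24 ± 0.194 FPKM with the 3 compounds, against 4.04 ± 0.864 in DMSO, and fell with each (-1.05, -0.95 and -1.16). HLA-DMA, which edits class II peptides, averaged 1.35 ± 0.410, 3.13 ± 0.671 and 0.441 ± 0.0285 FPKM with the 3 compounds, against 1.49 ± 0.211 in DMSO. It rose with THAL-SNS-032 (0.72, adjusted p = 2.63e-04, limma), where 1.37% of all genes were called higher, and fell with NVP-2 (-0.79). Its 2.17 with NVP-2 after centring had a sign set by its low DMSO level, since the constant added exceeds any fall that this level allows. The same holds for HLA-DMA with SNS-032 and for NLRC5 and HLA-DOB with NVP-2. The myeloid marker list, 6 genes, summed to 2.39 to 4.55 FPKM in SNS-032, 5.07 to 6.19 in THAL-SNS-032 and 0.773 to 0.986 in NVP-2 libraries, against 2.40 to 3.48 in DMSO libraries, with 1, 3, 0 and 1 genes at 1 FPKM or more, and its part in the change of HLA-DMA was not tested. With SNS-032 HLA-DMA was -0.095, not called, and 0.031 without SNS-032 replicate 1. HLA-DRA and the class II transactivator CIITA were at the floor of the table, about 0.1 FPKM, in DMSO. All 3 tested class I pseudogenes, whose reads may come from the heavy chains, fell with each compound (all genes 94.6%, 94.8% and 97.1%) and were called higher after centring (all genes 52.6%, 57.2% and 59.7%). CD8A and CD8B, whose products bind class I from the T-cell side, averaged 14.3 and 14.9 FPKM in DMSO and did the same. CDK9 itself averaged 10.2 ± 2.97, 9.78 ± 1.04 and 4.22 ± 0.374 FPKM, against 36.1 ± 4.16 in DMSO, and transcript level does not report the degradation of its protein.

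**Figure D5:**
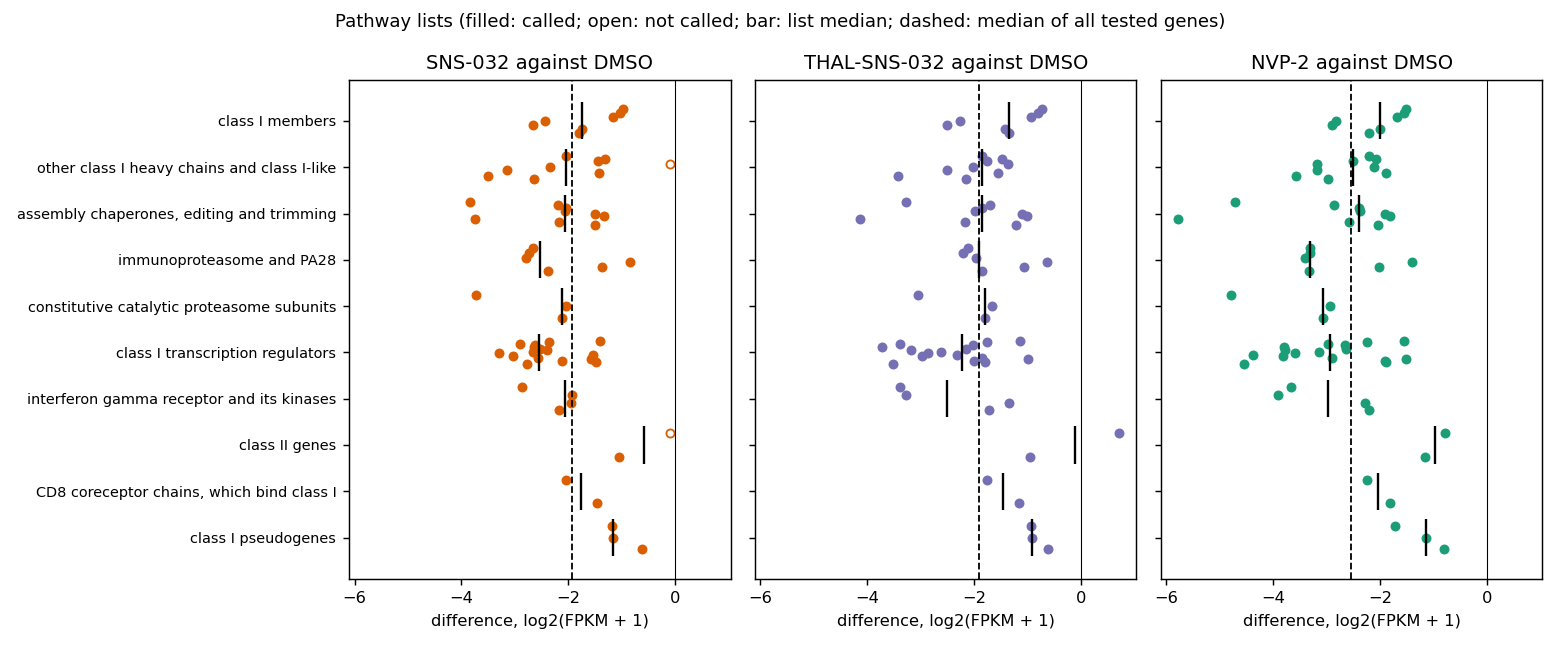
Difference from DMSO on the log2(FPKM + 1) scale for each tested gene of the pathway lists, 1 panel per compound on a common axis; filled points were called by limma (adjusted p under 0.05), open points were not, bars are list medians and the dashed line is the median of all tested genes. The class I members straddle the dashed line, MICB and HLA-DMA are the open points near 0 with SNS-032, and HLA-DMA is the point above 0 with THAL-SNS-032.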

How the data were processed

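Per the labels, cells were counted, ERCC spike-in RNA was added at lysis, and stranded Illumina libraries were made from poly(A)-selected RNA. Per the submitters' processing notes, the tools were HISAT and Cufflinks 2.0.0 with hg19. The authors deposited FPKM per gene, 1 column per library, on a scale set across libraries. The scaling step and the annotation are not given in the sources used here. No value is 0, and the lowest per library lie between 0.0274 and 0.104 FPKM. The table holds no counts, so depth is unknown.

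Of 23713 entries, 92 ERCC entries and 2 repeated symbols (the lower row of each) were left out. Genes averaging at least 1 FPKM entered 1 limma 3.58.1 fit (R 4.3.3, trend) of log2(FPKM + 1) on the 4 groups, without further normalization, and p-values were adjusted over all 11381 genes in each of 6 comparisons. This scale understates changes of low genes. Ratios to B2M used exact two-sided permutation over libraries. The alternatives were other pseudocounts, filters, scalings and fits, a replicate block and each library left out. Plots used Python 3.11.15 and matplotlib 3.10.9.

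The 7 genes and all lists were chosen with earlier results of these data known. Named genes are the 7, per list the highest-expressed gene and up to 3 called genes of largest change per comparison, the 3 nearest profiles of each of the 7, lists of 5 or fewer measured genes, and CDK9. NLRC5, HLA-DRA, CIITA and PDIA3 fall outside that rule and were chosen after their values were seen. Symbols were matched to RefSeq for promoters, and 6 of the 7 had an entry there. Shared windows came from GENCODE 29 transcripts. A related gene is not reported here.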

Additional observations from a re-analysis of the deposited data

How the results depend on the processing

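The falls of the 7 transcripts from DMSO kept their direction and their calls with a pseudocount of 0.1 or 5, with no filter or a mean of 5 FPKM, with equal ERCC medians, without trend, with robust, in the 6 libraries of a pair, with a replicate block and with any library left out. Centring on library medians and quantile normalization reversed most of them, because both remove the shift of all genes. Read counts are not in the table, so depth and counting error are unknown. Of the differences of the 7 with other settings, 398 kept their direction and call, 29 lost a call, 19 gained one and 58 reversed.

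On median-centred libraries the reversed differences were these. For SNS-032 against DMSO, B2M was 1.19, HLA-B 1.15, HLA-C 1.01, HLA-DMA 2.08, IRF1 0.63, MICB 2.08, NLRC5 0.77, PSME1 1.32, TAP2 0.43 and TAPBP 0.38. In THAL-SNS-032 against DMSO, B2M was 1.52, CD1E 0.11, HLA-B 1.46, HLA-C 1.32, MICB 0.90, NLRC5 1.11, PSMB10 0.30, PSMB9 0.047, PSME1 1.62, TAP2 0.83 and TAPBP 0.91. For NVP-2 against DMSO, B2M was 1.46, HLA-B 1.41, HLA-C 1.28, HLA-DMA 2.17, HLA-E 0.13, NLRC5 1.40, PSME1 1.56, TAP1 0.061, TAP2 0.97 and TAPBP 0.76. In THAL-SNS-032 against NVP-2, HLA-E was -0.14, TAP1 -0.32 and TAP2 -0.14. For SNS-032 against NVP-2, B2M was -0.26, HLA-B -0.26, HLA-C -0.27, HLA-E -0.39, TAP1 -0.54, TAP2 -0.53 and TAPBP -0.39. On that scale the comparison of SNS-032 with DMSO gave 3537 of all genes lower, a median of 0.43 over the 7, 5 of 7 higher and 2 of 7 lower. THAL-SNS-032 against DMSO gave 3319 of all genes lower, a median of 0.91 over the 7, 5 of 7 higher and 1 of 7 lower. For NVP-2 against DMSO there were 3198 of all genes lower, a median of 0.97 over the 7, 6 of 7 higher and 0 of 7 lower. The comparison of THAL-SNS-032 with SNS-032 gave 5822 of all genes higher and 7 of 7 higher. THAL-SNS-032 against NVP-2 gave 3343 of all genes higher, 1 of 7 higher and 3 of 7 lower. For SNS-032 against NVP-2 there were 2819 of all genes higher, a median of -0.39 over the 7, 0 of 7 higher and 7 of 7 lower.

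On quantile-normalized libraries the reversed differences were these. For SNS-032 against DMSO, B2M was 0.21, HLA-B 0.81, HLA-C 0.64, HLA-DMA 0.98, IRF1 0.54, MICB 2.05, NLRC5 0.14, PSME1 0.54, TAP2 0.37 and TAPBP 0.27. In THAL-SNS-032 against DMSO, B2M was 0.36, HLA-B 0.96, HLA-C 0.79, MICB 0.86, NLRC5 0.50, PSME1 0.67, TAP2 0.70 and TAPBP 0.68. For NVP-2 against DMSO, B2M was 0.54, HLA-B 1.11, HLA-C 0.96, HLA-DMA 0.60, HLA-E 0.024, NLRC5 0.53, PSME1 0.79, TAP1 0.092, TAP2 1.01 and TAPBP 0.72. In THAL-SNS-032 against NVP-2, B2M was -0.18, HLA-B -0.16, HLA-C -0.17, HLA-E -0.31, TAP1 -0.39, TAP2 -0.31 and TAPBP -0.033. For SNS-032 against NVP-2, B2M was -0.33, HLA-B -0.30, HLA-C -0.32, HLA-E -0.45, TAP1 -0.60, TAP2 -0.63 and TAPBP -0.44. On that scale the comparison of SNS-032 with DMSO gave 4726 of all genes higher and 4700 lower. The median over the 7 was 0.27, with 5 of 7 higher and 2 of 7 lower. THAL-SNS-032 against DMSO gave 5228 of all genes higher and 4456 lower. Here the median over the 7 was 0.68, with 5 of 7 higher and 2 of 7 lower. For NVP-2 against DMSO there were 5365 of all genes higher and 4393 lower. The 7 then had a median of 0.72, with 5 of 7 higher and 0 of 7 lower. The comparison of THAL-SNS-032 with SNS-032 gave 5912 of all genes higher and 7 of 7 higher. THAL-SNS-032 against NVP-2 gave 3540 of all genes higher and 4050 lower. There the median over the 7 was -0.18, with 0 of 7 higher and 6 of 7 lower. For SNS-032 against NVP-2 there were 3311 of all genes higher and 6136 lower. In that pair the median over the 7 was -0.44, with 0 of 7 higher and 7 of 7 lower.

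With the median gene in place of B2M as denominator, 15 of the 18 differences in log2 ratio from DMSO were above 0: for SNS-032 against DMSO HLA-B 1.35, HLA-C 1.20, TAP2 0.56 and TAPBP 0.53, for THAL-SNS-032 against DMSO HLA-B 1.66, HLA-C 1.52, HLA-E 0.15, TAP2 0.99 and TAPBP 1.09, and for NVP-2 against DMSO HLA-B 1.80, HLA-C 1.67, HLA-E 0.46, TAP1 0.25, TAP2 1.28 and TAPBP 1.10. The other 3 were HLA-E -0.11 and TAP1 -0.46 with SNS-032 and TAP1 -0.20 with THAL-SNS-032. With 1 FPKM added or HLA-B and HLA-C summed, no ratio changed its direction.

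Requiring at least 2-fold, the comparison of THAL-SNS-032 with DMSO gave 9656 of 11381 genes lower and 4 of 7 lower. With SNS-032 against DMSO it gave 9897 of all genes lower, and B2M alone of the 7 (-0.98) fell short. THAL-SNS-032 against SNS-032 gave 84 of all genes higher. For THAL-SNS-032 against NVP-2 there were 2262 of all genes higher and 0 of 7 higher. The comparison of SNS-032 with NVP-2 gave 2619 of all genes higher and 0 of 7 higher. With equal ERCC medians, THAL-SNS-032 against SNS-032 gave 429 of all genes higher. For SNS-032 against NVP-2 there were 4970 of all genes higher and 0 of 7 higher. For THAL-SNS-032 against NVP-2 this setting gave 4 of 7 higher instead of 6, and 6756 of all genes higher instead of 7969. Without a filter, the comparison of NVP-2 with DMSO gave 19550 of all genes lower. SNS-032 against NVP-2 gave 5905 of 23619 genes higher and 0 of 7 higher. In the 6 libraries of the pair, for THAL-SNS-032 against SNS-032 there were 507 of all genes higher. The comparison of SNS-032 with NVP-2 gave 4783 of all genes higher and 0 of 7 higher. With the replicate number as a block, THAL-SNS-032 against SNS-032 gave 2308 of all genes higher and 1 of 7 higher. For SNS-032 against NVP-2 there were 6694 of all genes higher and 5 of 7 higher. For THAL-SNS-032 against NVP-2 the block gave 8323 of all genes higher and 7 of 7 higher instead of 6. It changed no other count of the 7. Same-numbered libraries shared little gene-by-gene deviation: of 18 pairs, 1 correlated above 0.1 (range -0.15 to 0.17). In 17 of 36 comparisons of a library with another group of 3, its own number was the best match. The correlations do not register a shift common to all genes of a library, so they cannot decide whether replicate numbers pair the samples.

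Leaving out a library moved THAL-SNS-032 against SNS-032 to HLA-B -0.025 to 0.34, HLA-C -0.0075 to 0.34, HLA-E -0.072 to 0.29 and TAP1 -0.069 to 0.27, and the median of the 7 to -0.0075 to 0.34. Members called higher ranged from 0 to 7 for SNS-032 against NVP-2 and from 0 to 1 for THAL-SNS-032 against SNS-032, and all genes called higher from 4553 to 9292 and from 614 to 2765. With SNS-032 against DMSO HLA-DMA ranged from -0.22 to 0.031 and MICB from -0.24 to 0.16. Where a left-out library leaves 2 in a group, the spread pooled over all groups is used.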
